A study of Oryzias latipes with 10 samples.

Results

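In whole medaka (*Oryzias latipes*) embryos at stage 16, in late gastrulation, 116 genes had a lower RNA level in each of the 6 *yap* mutant libraries than in any of the 4 WT libraries, by a fixed margin. A gene was kept if its mean over the WT libraries was at least 1 CPM (the gene's count scaled to 1000000 gene counts per library) and if each mutant library lay below 0.7 times the lowest WT library. Of 24365 genes in the count table, 14544 reached the WT level and 138 met the rule, which is 0.949% of them. Taken out by name were 22 genes, namely *yap1* itself and the integrin, Ccn, collagen, Marcksl and Amotl2 genes with a few adhesion, signalling and epidermal genes, which left the 116 members. The mirror rule, with each mutant library above the highest WT library divided by 0.7, found 3 genes, which is 0.0206%. These were *alp3*, *tp53inp1* and *agr1*. The mirror rule was applied to the same 14544 genes, chosen by their WT level. Genes under 1 CPM in WT that were raised in the mutants could therefore not meet it. Nothing is read from the difference between 138 and 3 genes. The members were thus chosen by the CPM of all 10 libraries, so that their levels against WT are given as a description and not tested.

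The libraries came from WT embryos (4 libraries), from embryos mutant for *yap1* alone (*yap1*-/-, the *yap* single mutants, 3 libraries) and from embryos mutant for both paralogs (*yap1*-/-; *yap1b*-/-, the *yap* double mutants, 3 libraries). Embryos were genotyped one by one from their DNA and the RNA of embryos of one genotype was combined, so that a library is a pool and the spread between libraries is that between pools. Whole embryos were sequenced, and in such bulk RNA fewer cells of a type and less RNA per cell cannot be told apart.

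Yap is a transcriptional co-activator at the end of the Hippo pathway. The Lats kinases phosphorylate it and hold it in the cytoplasm, and in the nucleus it acts through the DNA-binding TEAD proteins. Stretched cells and stiff surroundings are known to keep Yap in the nucleus, where its best known targets are genes of the cytoskeleton, of cell adhesion and of the extracellular matrix, beside genes of growth and survival.

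The targeted genes followed the labels in their ranges, although WT 4 was low in *yap1*. The CPM of *yap1* (chromosome 13, 6489854 to 6520557 in the RefSeq annotation of ASM223467v1) was 304, 287, 295 and 169.7 in WT 1 to 4. It was 72.5, 96.5 and 85.6 in the single mutants and 75.2, 94.0 and 105 in the double mutants. The CPM of *yap1b* (chromosome 14, 12999434 to 13012139) was 78.5, 71.3, 79.4 and 83.9 in WT, 50.6, 74.0 and 75.7 in the single mutants, and 23.5, 26.5 and 29.9 in the double mutants. The *yap1* range of both mutants thus lay below that of WT, while for *yap1b* only that of the double mutants did. Library totals ran from 22053738 to 38383959 gene counts. WT 4 stood apart from WT 1–3, with a correlation of log2 CPM across genes of 0.951 to 0.952 against 0.989 to 0.990 among WT 1–3, and single mutant 1 and double mutant 1 had the lowest TMM factors (0.887 and 0.902). WT 4 was treated as one technical set with the double mutants, and WT 1–3 with the single mutants, a split read from the study's corrected values and given by no label. Levels of the single mutants are therefore given against WT 1–3 and those of the double mutants against WT 4 (1 library). For *yap1*, WT 4 was at 0.575 times the mean of WT 1–3. The double mutants were thus at 53.9% of WT 4 but at 31.0% of WT 1–3. The single mutants were at 28.8% of WT 1–3. Genotype and set cannot be told apart where the mutants are compared with each other directly.

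The members kept well under their WT level in both genotypes. The median member was at 38.3% of WT 1–3 in the single mutants (9.01% to 62.9%) and at 28.5% of WT 4 in the double mutants (7.31% to 58.5%), or 34.0% of WT 1–3. Over all 14544 expressed genes these medians were 96.2% and 96.0%. Summed over the members, the level was 4343 to 5233 CPM in the WT libraries, 1797 to 2147 CPM in the single and 1400.3 to 1854 CPM in the double mutants. The members were not abundant genes. Their median mean WT level was 9.33 CPM against 21.9 CPM over all expressed genes, 38 of 116 lay under 5 CPM, and 14 lay at 100 CPM or more. All 116 had at least 25 counts in each WT library and all entered the fit across 16513 genes. Of them 103 had a symbol or a description, and 13 had neither. The 103 members with a RefSeq position were spread over all 24 chromosomes, with at most 8 on one (chromosome 6).

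**Figure D1:**
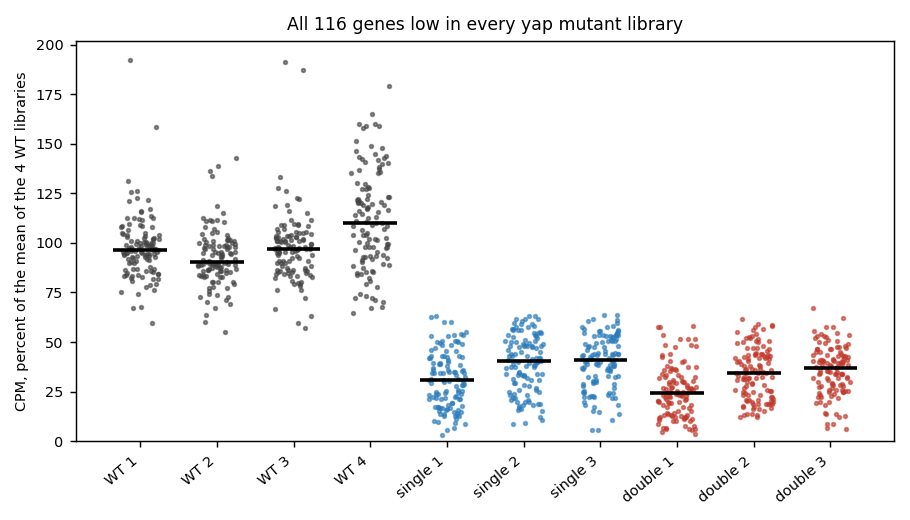
The CPM of each of the 116 members, as a percentage of its mean over the 4 WT libraries (vertical axis), in each of the 10 libraries (horizontal axis). Points are genes and black bars the medians, which lie at 90.4% to 110% in WT, 30.8% to 40.8% in the single and 24.2% to 37.2% in the double mutants.

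Signals and guidance cues made up 7 members and had the lowest median level of all roles in both mutants. It was 28.4% of WT 1–3 in the single mutants, and in the double mutants 13% of WT 4 but 21.9% of WT 1–3, as WT 4 was the highest WT library in several of these genes. A gene described as endothelin-3-like (chromosome 7, 9126231 to 9132618), after the peptide that acts on endothelin receptors, had 15.2, 14.1, 11.5 and 22.9 CPM in WT. It had 2.13, 3.01 and 2.17 CPM in the single mutants and 3.03, 3.01 and 2.87 CPM in the double mutants. All 6 mutant libraries thus lay within 1 CPM of each other, and the fitted log2 fold change was −2.41 (SE 0.19) in the single and −2.87 (SE 0.23) in the double mutants. The precursor of epiregulin, a ligand of the EGF receptor (proepiregulin, chromosome 9, 5379621 to 5389393), was lowest in the double mutants. Its CPM was 10.8, 9.96, 8.25 and 10.8 in WT, 3.04, 2.56 and 2.65 in the single mutants and 0.666, 1.22 and 1.21 in the double mutants. The 3 groups thus did not overlap. The rule had put WT above the mutants, and in 17.5% of all expressed genes every double lay below every single mutant library. *sema3e*, a secreted semaphorin that binds Plexin D1, was scarce in WT (1.12 to 2.55 CPM) and was left at 0.170 to 0.318 CPM in the 6 mutant libraries. *slit2*, the ligand of Robo receptors in axon and cell guidance, went from 24.1 to 32.3 CPM in WT to 8.18 to 13.7 CPM in the single and 3.40 to 11.5 CPM in the double mutants. *bmp7a*, a BMP ligand, had the most even WT values, 60.5 to 61.4 CPM, beside 29.9 to 36.7 CPM in the single and 26.2 to 31.6 CPM in the double mutants. The chemokine *cxcl14* went the other way between the mutants, with 3.29 to 4.00 CPM in the single and 4.60 to 8.37 CPM in the double mutants. Its WT levels were 12.5 to 16.1 CPM in WT 1–3 and 29.5 CPM in WT 4, so that the mutants were at 26.6% and 23.5% of their own WT.

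Receptors of several kinds, with enzymes of second messengers, made up 13 members, not all of them tied to small molecules or proteases. The member with the widest gap between WT and mutants belongs here. It is described as hydroxycarboxylic acid receptor 2, in mammals a G protein-coupled receptor of ketone bodies and niacin, and its highest mutant library was at 0.149 times its lowest WT library. Its levels were low, 1.59 to 2.21 CPM in WT and 0.0666 to 0.237 CPM in the mutants. *ltb4r2a*, a receptor gene of the leukotriene B4 family (chromosome 18, 23143398 to 23155465), was the most abundant of the group. Its CPM was 179, 176, 182 and 315 in WT, 52.2, 42.1 and 48.0 in the single mutants, and 63.1, 73.6 and 46.6 in the double mutants. Its paralog *ltb4r2b* was scarcer, at 2.15 to 4.38 CPM in WT, and was at 0.710 to 1.22 CPM in the single and 0.784 to 1.32 CPM in the double mutants. The paralogs thus kept 26.6% and 36.7% of WT 1–3 in the single mutants and 19.4% and 22.9% of WT 4 in the double mutants. Among the nucleotide receptors, *p2ry1* had 6.98 to 7.81 CPM in WT, 1.79 to 3.07 CPM in the single and 2.71 to 4.34 CPM in the double mutants. *P2RY6* had 5.76 to 9.28 CPM in WT and 2.70 to 3.76 CPM in the mutants. *F2RL2*, the protease-activated receptor 3, had 14.3 to 23.2 CPM in WT and 4.10 to 7.27 CPM in the mutants. The adenylate cyclase *adcy7* kept 41.7% and 32.8% and the inositol trisphosphate kinase *itpka* 52.9% and 37.7% of WT in the single and double mutants.

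Proteins of the matrix and the cell surface were the largest group, with 17 members, after integrins and collagens had been taken out. Roles were assigned to the members only, so no share over all expressed genes stands beside the size of a group. *frem1a* and *frem2b* encode large basement membrane proteins of the Fraser complex, which anchors the epidermis in mouse and zebrafish. The CPM of *frem1a* (chromosome 18, 30001724 to 30033538) was 41.8, 33.8, 39.8 and 33.1 in WT, 6.57, 12.3 and 11.1 in the single mutants, and 2.80, 7.42 and 8.52 in the double mutants. That of *frem2b* (chromosome 13, 8162573 to 8232887) was 26.8, 16.9, 26.6 and 17 in WT, 2.99, 6.84 and 7.15 in the single mutants, and 5.26, 5.28 and 6.24 in the double mutants. The single and double mutant ranges overlapped in both genes. *xylt1*, which starts the sugar chains of proteoglycans, kept 31.7% and 28.9%, and the matrix protein *sned1* 25.1% and 20.2%, of WT in the single and double mutants. *hapln3*, a link protein of hyaluronan and proteoglycans, was the most abundant of the group, with 196 to 272 CPM in WT, 85.6 to 119.9 CPM in the single and 84.1 to 106 CPM in the double mutants. Outside the rule for named genes and chosen after their values were seen, *serpinh1b*, the chaperone of collagens in the endoplasmic reticulum, and *str-3*, described as the metalloproteinase stromelysin-3, had 3 groups without overlap. The chaperone had 43.3 to 48.0 CPM in WT, 26.9 to 29.1 CPM in the single and 18.1 to 19.5 CPM in the double mutants. The groups of *sned1* did not overlap either, with 1.72 to 3.04 CPM in the single and 1.07 to 1.57 CPM in the double mutants. Every double lay below every single mutant library in 17.5% of all expressed genes.

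**Figure D2:**
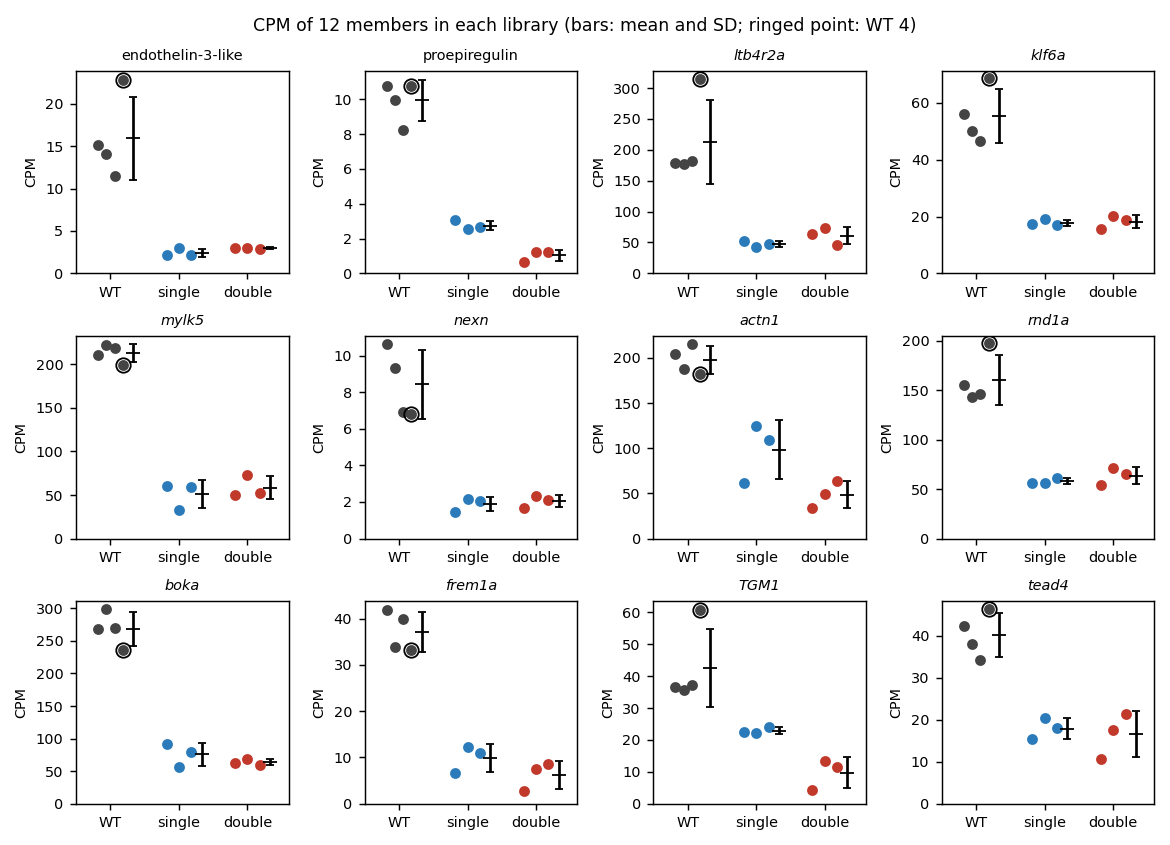
CPM (vertical axes, from 0) of 12 members in the libraries of WT and of both *yap* mutants; points are libraries, the ringed point is WT 4, and bars give the mean and SD of the group (WT n = 4, mutants n = 3). Every mutant point lies below every WT point. WT 4 is the highest WT library in endothelin-3-like, *ltb4r2a*, *klf6a*, *rnd1a*, *TGM1* and *tead4*, and narrowly in proepiregulin (10.767 CPM, beside 10.76 CPM in WT 1).

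Actin-binding and contractile proteins made up 13 members. *mylk5*, of the myosin light chain kinase family, whose members switch on non-muscle and smooth muscle myosin (chromosome 8, 6462487 to 6474223), had 211, 222, 219 and 199.5 CPM in WT. It had 60.7, 32.8 and 59.7 CPM in the single mutants and 49.6, 73.4 and 52.9 CPM in the double mutants, and was thus at a like level in both, 23.5% of WT 1–3 and 29.4% of WT 4. *nexn* encodes nexilin, which binds actin filaments and lies at the Z-discs of muscle. Its CPM was 10.6, 9.34, 6.92 and 6.83 in WT, 1.45, 2.19 and 2.04 in the single mutants, and 1.67, 2.34 and 2.12 in the double mutants. *actn1*, the actin cross-linker alpha-actinin 1 (chromosome 22, 1518383 to 1557792), was close to the limit of the rule. It had 205, 188, 215 and 182 CPM in WT, 61.4, 125 and 109 CPM in the single mutants, and 33.8, 49.1 and 63.2 CPM in the double mutants. The gene *zgc:101810*, described as a subunit of the actin-nucleating Arp2/3 complex (actin-related protein 2-B), had 28.2 to 43.4 CPM in WT and 5.62 to 9.79 CPM in the 6 mutant libraries. A plastin-3-like gene, after an actin-bundling protein, had 102 to 132 CPM in WT 1–3, 201 CPM in WT 4 and 34.6 to 50.6 CPM in the mutants. The septin *sept9a* differed little among the WT libraries, 169 to 172 CPM, and lay at 82.9 to 104 CPM in the single and 69.0 to 92.7 CPM in the double mutants. *afap1l2*, a partner of actin filaments, and the tensin *tns2a* kept 33.1% and 31.5% of WT 1–3 in the single mutants. In the double mutants they kept 15.2% and 27.0% of WT 4.

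Regulators of small GTPases made up 10 members. *rnd1a* (chromosome 7, 19087434 to 19099277) had 155, 143, 146 and 198 CPM in WT, 56.3, 56.3 and 61.4 CPM in the single mutants and 54.2, 71.8 and 64.9 CPM in the double mutants. The GTPase-activating proteins *SYDE1* and *SYDE2* were both members. *SYDE1* was scarce, with 2.59 to 4.84 CPM in WT and 0.233 to 0.900 CPM in the mutants, and *SYDE2* had 66.5 to 81.9 CPM in WT and 22.3 to 42.0 CPM in the mutants. They kept 20.7% and 49.9% of WT 1–3 in the single mutants, and 23.2% and 35.9% of WT 4 in the double mutants. *ARHGAP6*, another gene of this kind, had 12 to 15.9 CPM in WT, 5.26 to 7.25 CPM in the single and 1.43 to 5.05 CPM in the double mutants. A second identifier carries this symbol and is no member, so that reads of one gene may be split between them. *fgd5a*, an exchange factor of Cdc42, *GAS7*, a membrane-bending F-BAR protein, and *RASSF5*, a Ras effector that binds the Hippo kinase Mst, kept 37.2%, 46.1% and 52.0% of WT 1–3 in the single mutants and 30.5%, 25.8% and 38.5% of WT 4 in the double mutants.

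Transcription factors made up 8 members. *klf6a*, a zinc finger protein (chromosome 20, 9497833 to 9502420), had 55.9, 50.2, 46.7 and 68.7 CPM in WT, 17.2, 19.1 and 17.1 CPM in the single mutants and 15.6, 20.1 and 18.8 CPM in the double mutants. *tead4*, one of the DNA-binding partners of Yap (chromosome 6, 11670032 to 11700641), had 42.3, 38.0, 34.3 and 46.5 CPM in WT. It had 15.4, 20.3 and 17.9 CPM in the single mutants and 10.6, 17.6 and 21.5 CPM in the double mutants. *JUND*, a subunit of AP-1, was at 1.46 to 2.17 CPM in WT, 0.312 to 0.344 CPM in the single and 0.333 to 0.816 CPM in the double mutants. *MAFG*, a small Maf protein, was at 3.83 to 5.47 CPM in WT and 0.952 to 2.58 CPM in the mutants. The mutant ranges overlapped in these 4 genes.

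Kinases, phosphatases and survival proteins made up 9 members. *boka*, a Bcl-2 family member that promotes cell death in mammals (chromosome 4, 4166594 to 4177449), had 268, 299, 269 and 236 CPM in WT, 92.1, 56.2 and 78.9 CPM in the single mutants, and 63.2, 68.7 and 60.2 CPM in the double mutants. It was thus at 27.2% of WT 1–3 and 27.1% of WT 4. *bcl2b*, of the same family but known to protect cells, was scarcer, with 4.45 to 4.64 CPM in WT 1–3, 6.94 CPM in WT 4, 1.45 to 3.07 CPM in the single and 1.67 to 2.97 CPM in the double mutants.

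Channels and transporters made up 10 members, with medians of 42.5% and 31.8%. Voltage-gated potassium channels were found 3 times. *kcna7* was at 13.3 to 16.0 CPM in WT and 3.94 to 7.44 CPM in the mutants, *kcnc2* at 5.97 to 8.83 CPM and 1.09 to 3.83 CPM, and *KCND3* at 1.96 to 2.63 CPM and 0.30 to 1.08 CPM. The nicotinic acetylcholine receptor subunits *chrna2a* and *chrnb3a* kept 46.0% and 48.4% of WT 1–3 in the single mutants and 43.0% and 25.9% of WT 4 in the double mutants. *trpc6a*, a cation channel of the Trp family, had 1.21 to 2.16 CPM in WT, 0.317 to 0.795 CPM in the single and 0.100 to 0.392 CPM in the double mutants. Among the 8 enzymes, *acsbg2*, which activates fatty acids, was the most abundant, with 143 to 150.1 CPM in WT, 78.3 to 92.8 CPM in the single and 59.8 to 73.8 CPM in the double mutants.

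The highest levels of all were those of 2 unannotated genes. ENSORLG00000001801 had 483, 434, 441 and 602 CPM in WT, 222, 189 and 268 CPM in the single mutants and 103, 210.2 and 159 CPM in the double mutants. ENSORLG00000000479 had 436, 377, 479.5 and 455 CPM in WT, 150.4, 207 and 233 CPM in the single mutants and 107, 157 and 148 CPM in the double mutants.

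**Figure D3:**
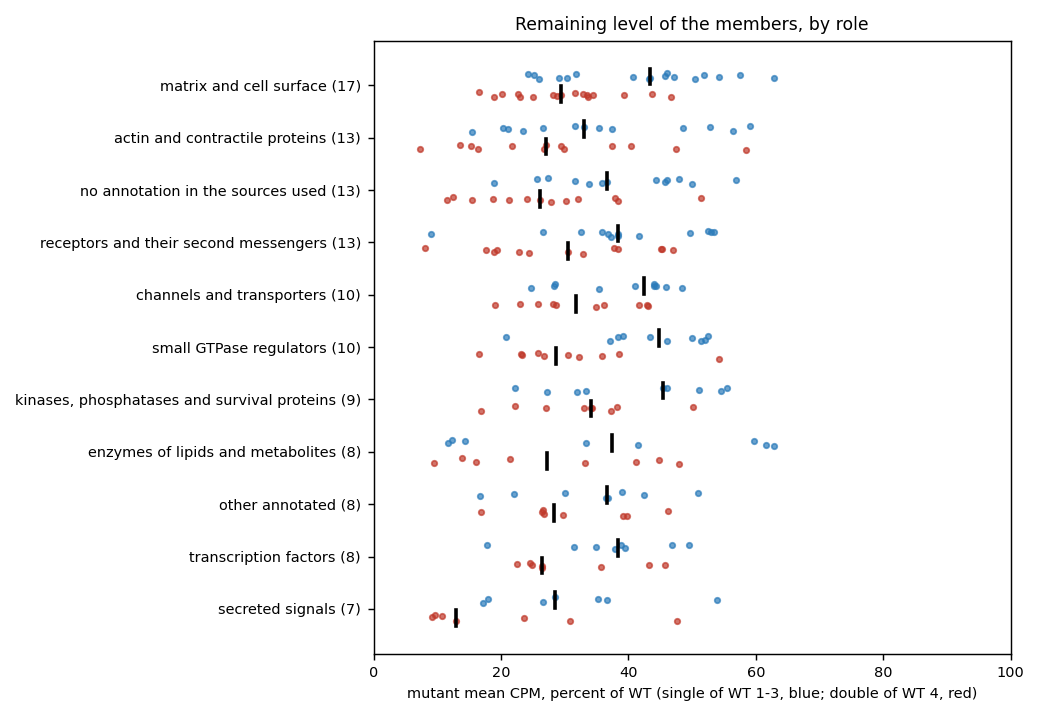
Mean CPM of the mutants as a percentage of WT (horizontal axis) for each of the 116 members, by role (vertical axis, number of members in brackets). Blue points are the *yap* single mutants against WT 1–3, red points the *yap* double mutants against WT 4, and black bars the medians; the medians run from 28.4% to 45.5% in blue and from 13% to 34.2% in red.

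The limit of 0.7 cut through a continuous range of genes. Among genes with a symbol, just inside it were *actn1* (0.686), *bcl2b* (0.691), *gpc5a* (0.693), *psd2* (0.694) and *tspan33a* (0.696), where the value is the highest mutant over the lowest WT library. Just outside, again among genes with a symbol, were *arhgef19* (0.7003), *hpgd* (0.702), *kcng3* (0.704), *rras2* (0.707) and *dlx3b* (0.707). With these included, 38 expressed genes lay between 0.7 and 0.75, and 58 of the 116 members lay at 0.6 or above. Only 29 members lay under 0.5, and 6 lay under 0.3.

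Across the mutant libraries, double mutant 1 held the lowest value in 63 of 116 members (54.3%, beside 30.2% of all expressed genes), and single mutant 1 in 25 (21.6%, beside 28.9%). With TMM scaling, which raises both of these libraries, double mutant 1 was still the lowest in 54 members, beside 24.8% of all genes. The spread was also wider in the members, with a median coefficient of variation of 24.7% among the double mutants against 15.5% over all expressed genes, and of 20.8% against 18.4% among the single mutants. Among WT 1–3 it was 9.79% against 7.49%. The members were scarcer than all expressed genes, with a median mean WT level of 9.33 CPM against 21.9 CPM. These spreads were not compared at matched levels, so nothing is read from their difference. Within WT, WT 4 was above all of WT 1–3 in 68 members (58.6%, beside 41.2% of all expressed genes) and below all of them in 25 (21.6%, beside 41.1%). The median ratio of WT 4 to the mean of WT 1–3 was 1.14 in the members and 0.994 over all expressed genes. The rule used these WT values, and a gene with a low WT 4 met its limit less easily, so that nothing is read from these shares.

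The double mutants were also set beside the single mutants, an order that the rule did not fix. The rule did cap every mutant library at the same limit, so the values compared here also chose the members. The counts beside all expressed genes are therefore a description. They are no test of whether the additional loss of *yap1b* lowered the members further. In direct ranges, all double mutant libraries lay below all single mutant libraries in 15 members (12.9%, beside 17.5% of all expressed genes) and above them in 3 (2.59%, beside 18.7%), and the ranges overlapped in 98. The double mutant mean was below the single mutant mean in 79 members (68.1%, beside 53.4% of all expressed genes). Without the technical set in the model, where the mutant libraries are compared directly, edgeR's quasi-likelihood test called 2 members lower at an adjusted p of 0.05, proepiregulin and ENSORLG00000001213 (background 1.13%), and 0 higher (background 0.793%). At an unadjusted p of 0.05 it called 17 lower (14.7%, background 17.9%) and 2 higher (1.72%, background 15.7%). The share of members called lower was thus near the background, and the share called higher was below it. Genotype and set cannot be told apart in this comparison, so nothing is read from either share. The median log2 difference, double minus single, was −0.12 over the members and 0.01 over all genes.

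With the set in the model, each mutant is taken relative to the WT of its set, and the WT values that chose the members enter the difference. In this fit 0 of 116 members passed an adjusted p of 0.05 in either direction (edgeR, background 0.0242% of 16513 genes lower and 0.00606% higher), and at an unadjusted p of 0.05 21 were lower (background 3.25%) and 0 higher (background 1.36%). DESeq2 called 2 lower, *TGM1* and proepiregulin (background 0.587%), and 0 higher (background 0.266%). The median difference was −0.41 over the members and −0.02 over all genes. As the members had been chosen by the same WT libraries, among them the high WT 4, these counts and the median are no test of a further decrease, and nothing is read from their distance to the background.

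**Figure D4:**
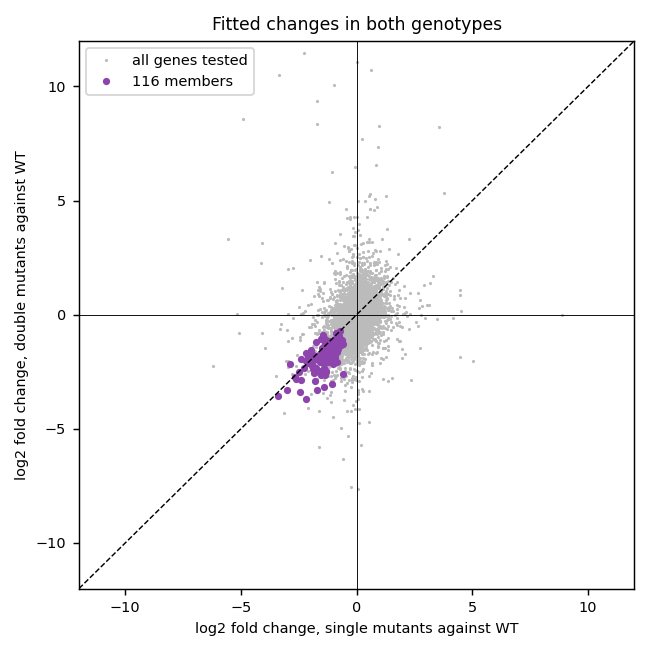
Fitted log2 fold changes against WT in the *yap* single mutants (horizontal axis) and the *yap* double mutants (vertical axis) for all 16513 genes tested (grey) and the 116 members (purple), with the diagonal dashed. The members have medians of −1.31 and −1.75, where all genes tested have 0.02 and 0.01, as the rule required.

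The 3 members with the smallest p between the mutants in the fit with the set, chosen after their values were seen, were *TGM1*, proepiregulin and *wnt6b*. *TGM1* encodes transglutaminase 1, which cross-links the envelope of outer epidermal cells in mammals (chromosome 4, 3025041 to 3040053). Its CPM was 36.6, 35.8, 37.1 and 60.8 in WT, 22.5, 22.2 and 24.1 in the single mutants and 4.36, 13.5 and 11.5 in the double mutants. The single mutants were thus at 62.9% of WT 1–3, and the double mutants at 16.1% of WT 4 or 26.8% of WT 1–3. The fitted difference was −2.0 (SE 0.49, adjusted p = 0.319) with the set and −1.21 (SE 0.34, adjusted p = 0.0625) without it. For proepiregulin the difference was −1.59 (SE 0.40, adjusted p = 0.322), with all 3 double mutant libraries lower. Without the set it was −1.38 (SE 0.26, adjusted p = 0.0367). *wnt6b*, a Wnt ligand, had 1.33 to 1.46 CPM in WT 1–3, 2.80 CPM in WT 4, 0.424 to 0.596 CPM in the single and 0.200 to 0.392 CPM in the double mutants. Its difference was −1.72 (SE 0.46, adjusted p = 0.398) with the set and −0.67 (SE 0.42, adjusted p = 0.275) without it. A difference that misses the threshold does not show that the 2 mutants were alike, since the difference rests on WT 4 alone on one side.

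**Figure D5:**
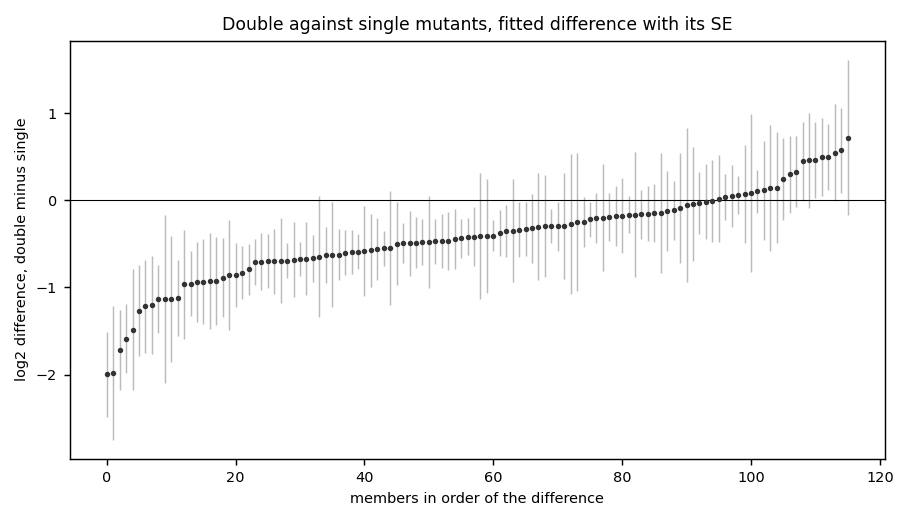
Fitted log2 difference between *yap* double and *yap* single mutants, each relative to the WT of its set (vertical axis), for the 116 members in order of the difference (horizontal axis); bars give 1 SE. The values run from −2.0 to 0.72 with a median of −0.41, and 95 members (81.9%) are below 0, beside 53.8% of all genes tested; the WT libraries that chose the members enter these values.

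Other genes of the pathways of the members were looked up in lists, leaving out the members and the genes taken out by name. Symbols were at hand mostly for genes that the study had called, so the counts are not shares of the pathways. The background is therefore that of the 2006 tested genes that had a symbol and did not meet the rule, of which 1.15% were lower and 0.648% higher in the single mutants and 8.77% lower and 0.648% higher in the double mutants. Over all genes tested these shares were 0.6% and 0.0908% in the single and 2.02% and 0.285% in the double mutants. Of 30 other contractile and actin-binding genes, 3 were lower in single and 9 in double mutants and 0 were higher in either. Values in brackets are log2 fold changes. The 9 included the membrane linker *ezrb* (−1.33, SE 0.13), the non-muscle myosin heavy chain *myh9b* (−0.97, SE 0.20) and the filament cross-linker *flna* (−1.34, SE 0.28), and *vclb*, a vinculin gene, was lower in both (−0.65, SE 0.09, and −0.89, SE 0.13). Of 15 other genes of the Yap/TEAD complex and Hippo pathway, 2 were lower in the double mutants, *yap1b* itself and *tead1b* (−1.53, SE 0.21), and 0 in the single mutants. The adjusted p-values of these genes lay under 0.05 in edgeR's test over all genes. Of 17 other genes of G protein-coupled signalling, 2 were lower and 1 was higher in the double mutants, and of 9 other ion channels 3 were lower. Of 19 other secreted signals, 1 was lower in each mutant, and of 6 other early response factors 1 was lower in the double mutants.

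Summed levels of cell type markers, which were not tested as sums, differed between the groups too, and single markers are given with edgeR's log2 fold change and adjusted p. Of 22 enveloping layer markers, 7 matched, and their summed level was 2666 to 4298 CPM in WT, 2123 to 2582 CPM in the single and 1675 to 2339 CPM in the double mutants. *TGM1* and *cldn1*, described as claudin-7, are among them and are members, and of the other 5 *ppl* was called lower in the double mutants (log2 fold change −1.11, SE 0.16, adjusted p = 0.00888). The 7 of 17 non-neural ectoderm markers summed to 1072 to 1207 CPM in WT, 825 to 895 CPM in the single and 665 to 809 CPM in the double mutants, where *dlx3b* was called lower (−0.87, SE 0.13, adjusted p = 0.0105). The mean of *dlx3b* was nearly the same in both mutants, 83.4 CPM in the single and 82.8 CPM in the double mutants. These means were 65.8% and 65.3% of WT 1–3. WT 4, the reference of the double mutants, was at 159 CPM, beside 126 to 128 CPM in WT 1–3. The 8 of 15 mesoderm markers summed to 573 to 657 CPM in WT, 683 to 772 CPM in the single and 659 to 891 CPM in the double mutants. Against this sum, the mesoderm marker *hand2* was called lower in the double mutants (−2.57, SE 0.37, adjusted p = 0.0085). The 2 of 15 neural plate markers summed to 213 to 248, 257 to 265 and 269 to 292 CPM in the same order. The 6 of 9 endoderm markers overlapped, with 290.5 to 395 CPM in WT, 283 to 351 CPM in the single and 234 to 302 CPM in the double mutants. The 3 of 9 germ cell markers summed to 278 to 310 CPM in WT, 180.2 to 231 CPM in the single and 69.6 to 93.1 CPM in the double mutants, where *tdrd7b* (−1.1, SE 0.20, adjusted p = 0.0234) and *ca15b* (−2.48, SE 0.14, adjusted p = 0.000183) were called lower. No matched marker was at 0 in a WT library, and none of the yolk syncytial layer matched. The part of these shifts in the levels of the members was not tested.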

How the data were processed

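RNA-seq of pooled whole embryos was read from the deposited table of counts, whole-number reads per gene from htseq-count. According to the methods, the authors trimmed reads with Trimmomatic, removed ribosomal reads, mapped them with Hisat2 to ASM223467, kept alignments of high mapping quality and counted them without normalization; their later batch correction is not in the deposited counts. CPM were computed on the gene rows. The 16513 genes that averaged 10 or more counts were fitted with edgeR 4.0.16 (R 4.3.3), TMM, with genotype and technical set as terms, with Benjamini-Hochberg adjusted p-values and a threshold of 0.05; fold changes are log2. DESeq2 1.42.0 was an alternative. The sets were inferred from the study's tables of corrected values and are in no label. In simulated data 47 of 50 genes lowered by 2 on the log2 scale in the double mutants alone were called against the single mutants, and 17 of 49 lowered by 1. The simulation gave every gene the same dispersion and held no difference between the technical sets. These shares therefore do not tell how often such a decrease would be called in the real libraries. Symbols came from the study's tables (2202 identifiers) and positions from RefSeq (ASM223467v1).

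The members and lists were chosen with earlier results of these data known. Named are *yap1* and *yap1b*, the 20 members with the widest gap and a WT mean of at least 5 CPM, up to 6 members of each list, the 10 most abundant, members called between the mutants, 5 on each side of the limit, and paralogs; of these 56 members some appear in counts only, and some results are not reported here. Residuals of same-numbered libraries correlated at r −0.0619 to 0.490, with the highest value between single mutant 1 and double mutant 1. Those of differently numbered libraries correlated at r −0.414 to 0.355. These ranges overlap, and whether the replicate numbers pair libraries was not tested, so the main fit held no pairing.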

Additional observations from a re-analysis of the deposited data

Results flagged for a closer look

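In 5 of the 56 named members, WT 4 lay apart from the other WT libraries, with a gap to its nearest neighbour that took up more of the range of the 4 values than Dixon's test allows. WT 4 was the high library in each, with 315 CPM for *ltb4r2a*, 11 CPM for *gpc5a*, 9.28 CPM for *P2RY6*, 6.94 CPM for *bcl2b* and 2.80 CPM for *wnt6b*. Chance flags about 1 group in 20. Over all 116 members 14 were flagged in this way (12.07%), 12 of them for WT 4, which was high in all 12, and over all 14544 expressed genes 2358 were flagged (16.2%), 2136 of them for WT 4, which was high in 1355. A gene with a low WT 4 met the limit on the lowest WT library less easily, so that the direction of WT 4 in the members was not independent of the rule. *yap1* is no member and was left out of the check on named members. There WT 4 was the low library, at 169.7 CPM beside 287 to 304 CPM in WT 1–3. WT 4 is the reference of the double mutants in the fit with the technical set, and the cause of its distance was not tested.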

How the results depend on the processing

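The number of members depended most on the limits of the rule. It was 58 with a limit of 0.6, 203 with 0.8, and 178 when the single mutants were held against WT 1–3 and the double mutants against WT 4. TMM and DESeq2 scaling gave 104 each, of which 101 and 102 were among the 116, and a WT level of 0.5 or 2 CPM gave 123 and 96. Leaving out 1 library gave 118 to 163, and leaving out single mutant 1 with double mutant 1, chosen after seeing the data, gave 134. With fewer libraries the rule is easier to meet, so these numbers could hardly fall. The ratio of WT 4 to WT 1–3 in the members was 1.18 and 1.16 under the TMM and DESeq2 scalings.

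Between the mutants, members called lower went from 0 to 2 with DESeq2 and to 2 without the set, and were 0 to 1 when 1 library was left out, where *TGM1* was called without double mutant 1 (adjusted p = 0.0443). With a replicate block in place of the set and without WT 4, 9 members were called lower and 2 higher, and over all genes 2316 lower. No member was called higher in any other setting. Over all genes, 4 were lower in double than in single mutants, 97 with DESeq2 and 186 without the set (0 to 8 when 1 library was left out). In the single mutants 99 were lower, 316 with DESeq2 (23 to 149 when 1 library was left out: 27, 28 and 23 without WT 1, 2 and 3, 43 and 29 without single mutants 2 and 3, and 149 with double mutant 1 left out). For the double mutants 334 were lower, 541 with DESeq2, 2163 without the set and 3797 with the replicate block (190.0 to 483 when 1 library was left out: 217 without WT 1 or WT 3 and 190.0 without double mutant 2). Leaving out WT 4 gave no value for the double mutants. The replicate numbers share no stated origin. Of the named members, 0 reversed their fold change against WT under any setting. The rule had placed every mutant library below every WT library, so this was all but fixed in advance and is no test. Of their fold changes under the settings, 34 of 840 in the single and 65 of 784 in the double mutants moved by more than 1 SD between replicates. The causes were not tested. Promoter motifs were not run. Depth limits the scarcest members, with 18 of 116 under 50 counts in a WT library.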

Other observations

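*trpc6a*, a scarce member (1.21 to 2.16 CPM in WT), lies on chromosome 14 from 13024711 to 13038274, with 12571 bases between the end of *yap1b* and its start. It was low in the single mutants (0.317 to 0.795 CPM), where RNA of *yap1b* was at 87.4% of WT 1–3, and in the double mutants (0.100 to 0.392 CPM). Chromosome 13, which holds *yap1*, carried 6 members (5.83% of those with a position, beside 5.62% of the 1637 expressed genes with a position), and chromosome 14 carried 2 (1.94%, beside 3.91%). Positions were matched only for genes named in the study's tables, so these are not shares of all 14544 expressed genes.

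Members that are close neighbours on the RefSeq map were found 3 times. The matrix gene *emilin2b* and the sarcomere gene *myom1b* lie on chromosome 20 with 1 protein-coding gene between their starts, the phosphate transporter *slc20a1a* and the synaptic vesicle gene *syn1* on chromosome 9 with 1 gene, and *kcna7* and the liprin gene *ppfia3* on chromosome 8 with 2 genes. Of these, *emilin2b* had 49.0 to 86.9 CPM in WT and 15.6 to 28.8 CPM in the mutants, and *myom1b* 1.12 to 2.14 CPM and 0.0666 to 0.305 CPM. These genes were chosen for their position after the values were seen.

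Genes whose products are known from muscle or nerve were among the scarce members. The sarcomere genes *myom1b* and *tnnc1a* kept 20.2% and 15.4% of WT 1–3 in the single mutants and 7.31% and 13.5% of WT 4 in the double mutants, and the synapsin *syn1* kept 36.5% and 46.2%. Their WT levels were 1.09 to 3.75 CPM. No mutant library held more than 10 counts of *myom1b*, 16 of *tnnc1a* or 52 of *syn1*. These genes were chosen after their values were seen.

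Against the members stand the 3 genes of the mirror rule. *agr1*, of the anterior gradient family of secretory pathway proteins, had 62.7 to 71.9 CPM in WT, 114 to 158 CPM in the single and 162 to 196 CPM in the double mutants. *tp53inp1*, a p53-inducible gene in mammals, had 7.91 to 9.25 CPM in WT and 13.4 to 19.7 CPM in the mutants, and the alkaline phosphatase *alp3* had 0.699 to 1.97 CPM and 2.90 to 11.4 CPM. They were chosen by their levels, and no test was made of them.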
